A study of Mus musculus with 6 samples.

Results

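The enzymes described here run the methionine cycle and the transsulfuration pathway, and their transcripts were profiled in whole uterus from intact female mice at an age of 2 weeks. The members were a list of 9 genes: Cbs, Cth, Ahcy, Mat2a, Mat2b, Mtr, Mtrr, Bhmt2 and Cdo1. The list was chosen on the difference between the genotypes in these same arrays, so the differences of its members are given as a description and support nothing by themselves. Every probe set whose platform annotation gave exactly 1 symbol, equal to a listed gene, was taken. This gave 8 of 41420 probe sets, for 6 of the 9 genes. Ahcy, Mat2a and Bhmt2 had no such probe set in the table used and were not analysed here.

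Each of 3 Affymetrix arrays per genotype held RNA from uteri labelled Arid1a d/d or Arid1a f/f. Arid1a codes for a DNA-contacting component of SWI/SNF, a complex that moves nucleosomes, and in the usual notation d marks a deleted and f a floxed allele. The labels name no Cre driver, no strain and no pooling, so the cells that lost the gene and the number of animals behind an array are not given. The study's title places the comparison in the development of endometrial glands. All levels are log2 intensity, and every difference on that scale is d/d minus f/f.

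Homocysteine stands at the branch point of this chemistry. Mat2a and Mat2b make S-adenosylmethionine, the methyl donor of most methyltransferases, and Ahcy turns what is left after methyl transfer into homocysteine. Homocysteine is then either remethylated to methionine, by Mtr with methylfolate and cobalamin or by betaine-dependent enzymes such as Bhmt, or committed to cysteine through Cbs and Cth. Cdo1 removes cysteine by oxidation on the way to taurine. Cbs and Cth also release hydrogen sulfide, a gas that relaxes smooth muscle of vessels and of the uterine wall.

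Arid1a itself measured 6.98, 7.06 and 7.04 in d/d uteri and 7.54, 7.58 and 7.71 in f/f uteri, a difference of -0.58 ± 0.09 (SE; limma adjusted p = 0.0342). The labels do not say which exons are deleted, so whether its 1 probe set lies in the deleted part is not known. Correlations between arrays over all probe sets ran from 0.987 to 0.995. The array d/d 1 correlated at 0.9901 and 0.9905 with the other d/d arrays. With f/f 1 it correlated at 0.9946, and with f/f 2 and f/f 3 at 0.9910 and 0.9911. It thus stood nearest to f/f 1, and only slightly nearer to the other f/f arrays than to its own group. Results that rest on it are given with and without it. The tissue's own markers were present, with summed intensities of 3881 to 4103 in d/d and 2644 to 3247 in f/f for 7 epithelial genes. For 9 stromal genes the sums were 11883 to 14161 in d/d and 14705 to 15632 in f/f.

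Cbs was lower and Mtr higher in d/d uteri, while Cth, Mat2b and Mtrr differed little. Cbs in d/d uteri stood at 0.469 of its level in f/f uteri by its brighter probe set. Mtr stood 1.76-fold higher by its brighter probe set. Cdo1 averaged lower in d/d, but 1 of the 3 d/d arrays lay at the f/f level. Of the 8 probe sets, 1 was called lower and 1 higher at an adjusted p under 0.05 over all probe sets. Across the array 0.21% of probe sets were called lower and 0.314% higher. The groups did not overlap for 4 of the 8, against 14.1% of all probe sets. Because the list was chosen with this contrast in view, nothing is read from these shares. In bulk tissue fewer cells of a type and less RNA per cell cannot be told apart.

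**Figure D1:**
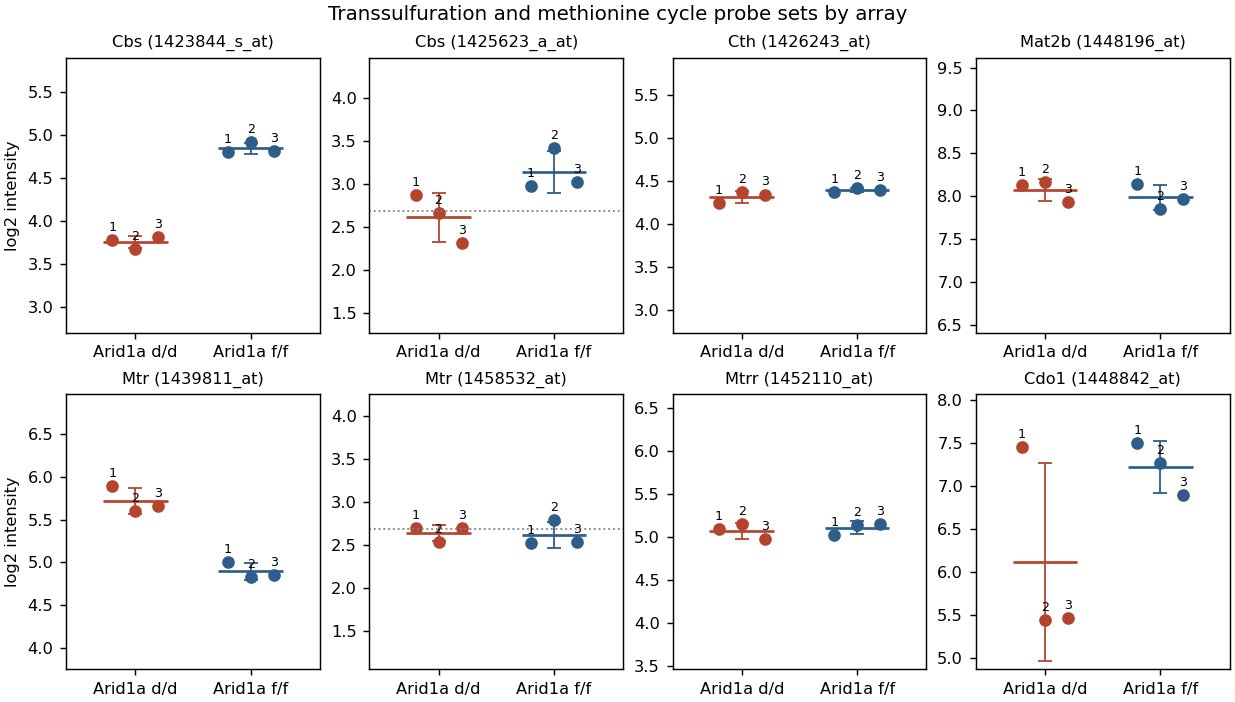
Log2 intensity of the 8 probe sets on each array, with Arid1a d/d (red) left of Arid1a f/f (blue), the array number above each point, and the mean with its SD (n = 3). Every panel spans the same number of log2 units, and the dotted line, where it falls in the panel, marks 2.69, the median of all values. The genotypes are far apart for the brighter probe sets of Cbs and Mtr, and d/d 1 lies with the f/f arrays for Cdo1.

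Cbs, cystathionine beta-synthase, joins homocysteine to serine and opens the transsulfuration pathway. Its brighter probe set, 1423844_s_at, measured 3.78, 3.68 and 3.81 in d/d 1, 2 and 3, against 4.81, 4.92 and 4.82 in f/f 1, 2 and 3. All d/d arrays were low and all f/f arrays high, with 1.00 log2 units between the highest d/d and the lowest f/f value. Within a genotype the arrays spanned 0.13 in d/d and 0.11 in f/f. The mean was 3.76 ± 0.07 in d/d and 4.85 ± 0.06 in f/f (SD, n = 3 each), a difference of -1.09 ± 0.09 (SE). On the linear scale the means were 13.5 in d/d and 28.9 in f/f. This probe set had the 10th smallest p of the 41420, and its difference was larger in size than that of 98.8% of probe sets within 1 log2 unit of its mean level. Array d/d 1, which stood nearest to f/f 1 over all probe sets, had the Cbs level of the other d/d arrays.

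The second Cbs probe set, 1425623_a_at, was dimmer. It measured 2.88, 2.66 and 2.31 in d/d 1, 2 and 3, against 2.98, 3.43 and 3.02 in f/f 1, 2 and 3. The groups again did not overlap, with all d/d arrays lower, but they were separated by only 0.10. The difference was -0.53 ± 0.17 (SE) and was not called. Arrays d/d 2 and d/d 3 lay below 2.69, the median of all values, where background can compress differences, which was not tested. In Affymetrix naming the suffix _s_at marks a probe set that can match transcripts of more than one gene, and _a_at one that matches several transcripts of a gene. The mean of both Cbs probe sets gave -0.81 ± 0.11 (SE).

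Mtr, methionine synthase, is the cobalamin-dependent enzyme that returns homocysteine to methionine. Its brighter probe set, 1439811_at, measured 5.89, 5.60 and 5.66 in d/d 1, 2 and 3, against 5.01, 4.83 and 4.85 in f/f 1, 2 and 3. Every d/d array was higher than every f/f array, with a gap of 0.59 between the groups. The mean was 5.72 ± 0.16 in d/d and 4.90 ± 0.10 in f/f (SD, n = 3 each), a difference of 0.82 ± 0.11 (SE). In d/d the highest array was d/d 1, and in f/f it was f/f 1, the array nearest to d/d 1 over all probe sets. The difference was called in 1 of 6 fits with an array left out, the one without d/d 1, where it was 0.73. In those 6 fits it lay between 0.73 and 0.88.

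The other Mtr probe set, 1458532_at, showed no such separation. It measured 2.69, 2.53 and 2.69 in d/d 1, 2 and 3, against 2.52, 2.79 and 2.53 in f/f 1, 2 and 3, and the groups overlapped. Its difference was 0.024 ± 0.105 (SE), with a 95% interval of -0.22 to 0.27. It lay around 2.69, the median of all values, in both genotypes. Whether background limits what it can show was not tested. The mean of both Mtr probe sets, which includes it, gave 0.42 ± 0.08 (SE) and was not called.

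**Figure D2:**
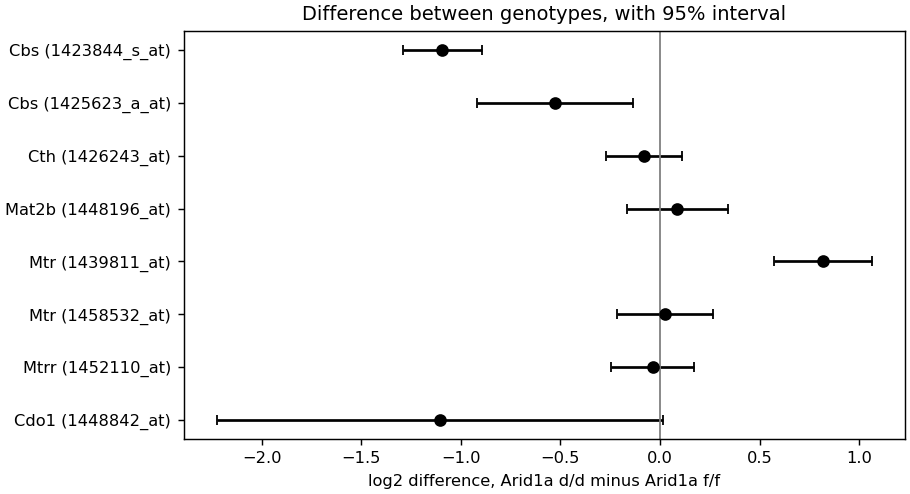
Difference in log2 intensity (Arid1a d/d less the f/f mean) for each of the 8 probe sets, with its 95% interval from the limma fit (n = 3 arrays per genotype). The brighter probe sets of Cbs and Mtr lie at -1.09 and 0.82, Cth, Mat2b and Mtrr lie within 0.1 of 0, and the Cdo1 interval runs from -2.23 to 0.016.

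The promoters of Cbs and Mtr are shown because these genes had the called differences. Each run holds 250 bases before and 50 after the RefSeq start of the gene in build GRCm38.p6, read 5′ to 3′ on the gene's strand. Capitals mark every GC box (GGGCGG or its reverse complement CCGCCC) and CCAAT box (CCAAT or ATTGG). The Cbs window is chr17:31637156-31637455 and the Mtr window is chr13:12258064-12258363, both on the minus strand.
Cbs: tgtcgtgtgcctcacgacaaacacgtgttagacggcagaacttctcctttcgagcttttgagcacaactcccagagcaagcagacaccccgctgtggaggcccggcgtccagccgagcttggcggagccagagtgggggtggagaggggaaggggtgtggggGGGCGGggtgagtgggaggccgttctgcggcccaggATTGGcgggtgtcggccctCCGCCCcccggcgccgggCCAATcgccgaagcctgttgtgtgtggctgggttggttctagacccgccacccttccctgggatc
Mtr: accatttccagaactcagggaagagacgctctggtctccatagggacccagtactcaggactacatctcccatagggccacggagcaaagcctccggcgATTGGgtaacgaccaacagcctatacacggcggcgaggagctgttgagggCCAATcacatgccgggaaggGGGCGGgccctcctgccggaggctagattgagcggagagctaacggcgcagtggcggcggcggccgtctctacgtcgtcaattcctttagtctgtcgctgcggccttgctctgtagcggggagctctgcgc
The Cbs window holds 2 GC boxes and 2 CCAAT boxes, and the Mtr window 1 and 2. On either strand a GC box is found in 35.7% and a CCAAT box in 37.4% of 32851 RefSeq promoters of the same length. Neither window holds the TATA box letters TATAAA on either strand, which 13.6% of promoters do. CpG pairs number 22 in the Cbs and 24 in the Mtr window, above the median of 7 and at percentiles 76.9 and 80 of all promoters. Members without a called difference lay above that median too, with 19 for Mat2b and 37 and 39 for Mtrr. Mat2b had 2 GC boxes and 1 CCAAT box, and Mtrr 1 of each. These features were thus not particular to Cbs and Mtr. These matches describe letters, and no binding was measured.

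Cth, cystathionine gamma-lyase, completes transsulfuration by splitting cystathionine to cysteine. It measured 4.24, 4.38 and 4.35 in d/d 1, 2 and 3, against 4.38, 4.43 and 4.40 in f/f 1, 2 and 3. The d/d arrays all lay below the f/f arrays, but by under 0.001 log2 units between d/d 2 and f/f 1. The difference was -0.079 ± 0.083 (SE), with a 95% interval of -0.27 to 0.11, or 0.830 to 1.08 of the f/f level. The interval for the brighter Cbs probe set was -1.29 to -0.89, and the difference between the pair was not tested.

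Mat2b, the regulatory subunit of the methionine adenosyltransferase that serves most tissues outside the liver, overlapped between genotypes. It measured 8.13, 8.17 and 7.93 in d/d 1, 2 and 3, against 8.14, 7.85 and 7.97 in f/f 1, 2 and 3. The difference was 0.088 ± 0.110 (SE), with a 95% interval of -0.17 to 0.34. Mtrr, the reductase that reactivates methionine synthase, overlapped as well. It measured 5.09, 5.15 and 4.97 in d/d 1, 2 and 3, against 5.02, 5.14 and 5.15 in f/f 1, 2 and 3. The difference was -0.037 ± 0.091 (SE), with a 95% interval of -0.25 to 0.17. The 95% interval of the brighter Mtr probe set, whose enzyme Mtrr serves, was 0.57 to 1.06, and the difference between the pair was not tested.

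Cdo1, cysteine dioxygenase, turns cysteine into cysteine sulfinate, and it is abundant in liver and in fat cells. It measured 7.45, 5.44 and 5.47 in d/d 1, 2 and 3, against 7.51, 7.27 and 6.90 in f/f 1, 2 and 3. Arrays d/d 2 and d/d 3 were low, and d/d 1 lay among the f/f arrays. The difference was -1.11 ± 0.49 (SE), with a 95% interval of -2.23 to 0.016, and was not called. Without d/d 1 it was -1.77 ± 0.17 (SE) and was called, and without d/d 2 or d/d 3 it was -0.76 and -0.78 and was not.

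Fat cell markers were lower in d/d beside Cdo1, without passing the threshold. The summed intensity of 5 measured markers (Adipoq, Fabp4, Retn, Cidec and Lep) was 476, 191 and 229 in d/d 1, 2 and 3, against 633, 585 and 915 in f/f 1, 2 and 3. Array d/d 1 was the highest of the d/d arrays in both, although for the fat markers it stayed below every f/f array. Among the f/f arrays the pair did not run together, as f/f 3 had the lowest Cdo1 and the highest fat value. Array d/d 1 was also the highest d/d array in the summed stromal, smooth muscle, endothelial and leukocyte markers, so that place was not particular to fat. All 5 markers were lower in d/d, with a median difference of -1.20, and 0 of 5 passed over all probe sets by limma (4 of 5 had an unadjusted p under 0.05, all lower). Lep lay below 2.69 on every array. The part of fat or other cells in the Cdo1 values was not tested. Of 4 liver markers, which would mark the other organ rich in these enzymes, 3 lay below 2.69 on every array. Alb was among them, at 2.20 in d/d and 2.23 in f/f. The remaining marker, Ttr, measured 3.32 in d/d and 3.46 in f/f and was not called.

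**Figure D3:**
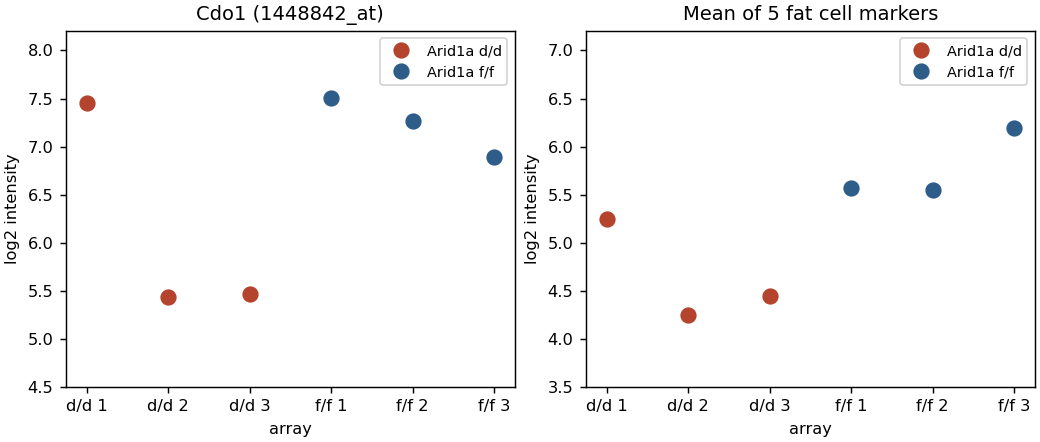
Log2 intensity of Cdo1 (left) and the mean log2 intensity of 5 fat cell markers (right) on each array, with Arid1a d/d in red and Arid1a f/f in blue. Array d/d 1 stands with the f/f arrays for Cdo1 at 7.45 and is the highest d/d array for the fat markers at 5.24.

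Markers of other cell types were compared in the same way, and 3 passed the threshold. Beside the Cbs and Mtr values, 5 of 7 epithelial markers were higher in d/d (median 0.61) and 1 passed, Cdh1, the epithelial cadherin, at 1.00. At an unadjusted p under 0.05 by limma, 4 of the 7 were higher and 0 lower. Of 5 gland markers 2 passed, both lower, Cxcl15 at -3.71 and Foxa2 at -1.41. The sums over the 5 were 23.3 to 25.9 in d/d and 59.7 to 112 in f/f. Of the 5, 3 lay below 2.69 on every array, and 0 were higher and 3 lower at an unadjusted p under 0.05. All 9 stromal (median -0.31), 5 smooth muscle (-0.21) and 5 endothelial (-0.67) markers were lower and 0 passed by limma, with 4, 1 and 5 of them at an unadjusted p under 0.05. The sums for smooth muscle were 3053 to 3996 in d/d and 3775 to 4248 in f/f, and for endothelium 421 to 581 in d/d and 725 to 777 in f/f. Of 6 leukocyte markers 0 passed, with 1 higher and 1 lower at an unadjusted p under 0.05 and sums of 274 to 358 in d/d and 337 to 354 in f/f. The part of tissue composition in the Cbs and Mtr differences was not tested.

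The pathways around these enzymes held 1 gene past the threshold. Of 107 listed genes in 8 neighbouring pathways, 85 were measured, each by its brightest probe set, and 0 rose, 1 fell and 84 did not pass. Over all 16813 genes taken the same way 0.506% were called higher and 0.345% lower. At an unadjusted p under 0.05, 4 of the 85 were higher and 11 lower, against 5.44% and 7.16% of all genes. The median difference over the 85 was -0.019, against -0.011 over all genes.

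Gpx2, a glutathione peroxidase of epithelia, was the gene that fell. It measured 2.83, 3.02 and 2.93 in d/d 1, 2 and 3, against 3.77, 3.74 and 4.002 in f/f 1, 2 and 3, with all d/d arrays low. The d/d values lay close above 2.69, the median of all values, and whether background limits them was not tested. The difference was -0.91 ± 0.10 (SE; limma adjusted p = 0.0121), or 1.88-fold lower in d/d. It passed in 2 of 6 fits with an array left out, those without d/d 1 and without f/f 1, and the adjusted p without the others reached 0.0723. Gstm1, a glutathione S-transferase whose probe sets can share sequence with its close relatives, had -1.05 ± 0.30 (SE; limma adjusted p = 0.248). Without d/d 1 it was -1.41 with an adjusted p of 0.0109. With any other array left out it did not pass, and the adjusted p reached 0.573. Leaving out d/d 1 raised the probe sets called across the array from 217 to 971. The other Gstm1 probe sets gave -0.22 and -0.68, and the mean of all 3 was -0.65. The glutathione list as a whole had 14 measured genes, a median of -0.077, and 0 higher and 1 lower. The subunits of its first enzyme did not pass, with Gclc at -0.17 and Gclm at 0.28.

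Genes that feed or drain the methionine cycle did not pass. Of 12 measured 0 passed by limma, with 0 higher and 3 lower at an unadjusted p under 0.05, and the median was -0.023. Nnmt, which spends S-adenosylmethionine to methylate nicotinamide, measured 3.56, 3.09 and 2.77 in d/d 1, 2 and 3, against 3.73, 4.17 and 4.36 in f/f 1, 2 and 3. Its groups did not overlap, with a difference of -0.95 ± 0.22 (SE; limma adjusted p = 0.151). Without d/d 1 it was -1.16 with an adjusted p of 0.0196. With any other array left out Nnmt did not pass, and the adjusted p reached 0.475. Bhmt, the betaine-dependent counterpart of Mtr and a close relative of Bhmt2, was dim, at 1.72 in d/d and 2.00 in f/f. Mat1a, the liver form of the adenosyltransferase, differed by 0.017, and the Ahcy-like genes Ahcyl1 and Ahcyl2 by -0.001 and 0.119.

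The lists for folate and cobalamin, which Mtr uses, held no gene past the threshold, though not every listed gene serves Mtr. Of 14 measured folate cycle genes 0 passed and 7 were higher and 7 lower (median 0.0048), with 1 at an unadjusted p under 0.05. That gene was Shmt1, a serine hydroxymethyltransferase that loads folate with a carbon unit, at 0.25 ± 0.10 (SE; limma adjusted p = 0.440), and its 4 probe sets were all higher, at 0.24 to 0.51. Slc19a1, the reduced folate carrier, had 0.16 ± 0.08 (SE; adjusted p = 0.562). Of 7 measured genes of cobalamin handling 0 passed by limma, adjusted or not. Of these 7, 6 were lower and 1 was higher, and the median was -0.072. Mmab, an adenosyltransferase of cobalamin, had -0.19, with 2 of its 4 probe sets higher and a mean over all of them of -0.057. Tcn2, the plasma carrier of cobalamin, had -0.18, and its 5 probe sets were all lower, at -0.44 to -0.12.

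Downstream of Cth, genes of cysteine, taurine and sulfide handling did not pass either (11 measured, median -0.010, with 1 higher and 3 lower at an unadjusted p under 0.05). Suox, the sulfite oxidase that finishes sulfur breakdown, measured 4.04, 3.84 and 3.41 in d/d 1, 2 and 3, against 4.75, 4.21 and 4.64 in f/f 1, 2 and 3. All d/d arrays were lower, with a difference of -0.77 ± 0.19 (SE; limma adjusted p = 0.168), and without d/d 1 it was -0.91 with an adjusted p of 0.0455. With any other array left out Suox did not pass, and the adjusted p reached 0.447. Tst, the sulfurtransferase rhodanese, had -0.42 ± 0.12 (SE; limma adjusted p = 0.258). Csad, which makes the taurine precursor from the product of Cdo1, had -0.13.

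The remaining lists showed no member past the threshold. Serine synthesis and the ATF4 response, which supplies the serine that Cbs uses, had a median of -0.041 over 10 genes, with 0 higher and 1 lower at an unadjusted p under 0.05. Asns, asparagine synthetase, had -0.34 ± 0.10 (SE; limma adjusted p = 0.261), and Psat1, a serine synthesis enzyme, 0.77 ± 0.38 (SE; adjusted p = 0.572). Psat1 measured 5.70, 7.09 and 7.07 in d/d 1, 2 and 3, against 5.42, 5.75 and 6.37 in f/f 1, 2 and 3, so that d/d 1 again lay within the f/f range. Without d/d 1 Psat1 stood at 1.23 with an adjusted p of 0.0356. With any other array left out it did not pass, and the adjusted p reached 0.956. Polyamine synthesis and methionine salvage had a median of 0.057 over 7 genes, with Sat1, which acetylates polyamines, at -0.27 and the salvage enzyme Enoph1 at 0.22. The other Enoph1 probe set stood at -0.11, and the mean of both was 0.058. Methyltransferases that use S-adenosylmethionine had a median of -0.015 over 10 genes, with Icmt, which methylates prenylated proteins, at -0.24 and Dnmt1, the maintenance DNA methyltransferase, at 0.34. In these last 2 lists 0 were higher and 1 was lower at an unadjusted p under 0.05 in each.

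**Figure D4:**
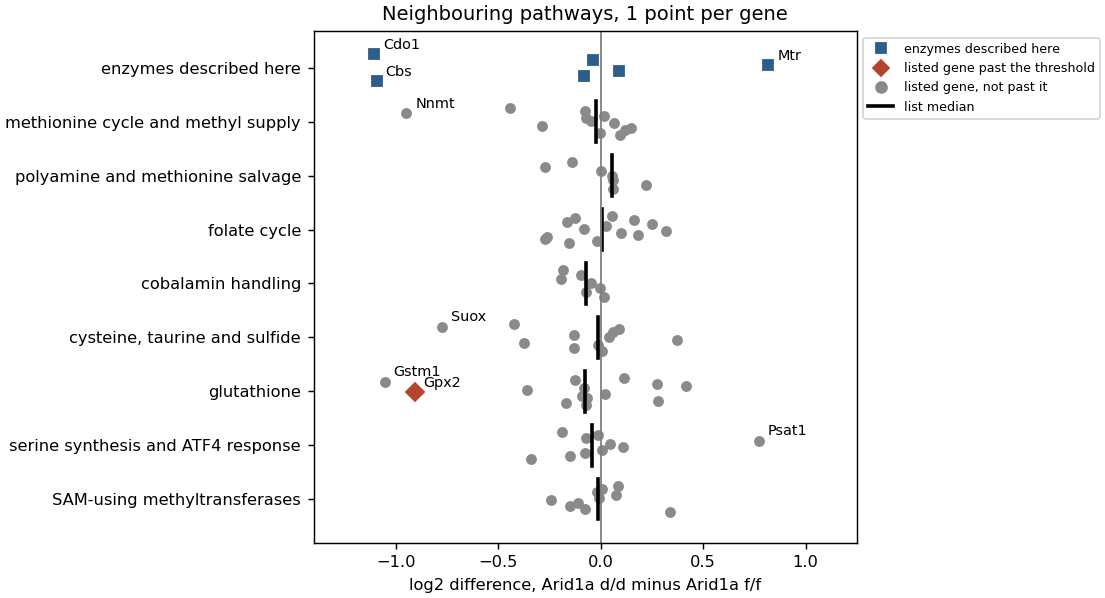
Difference in log2 intensity (d/d less the f/f mean), with 1 point per gene by its brightest probe set, for the 6 measured enzymes described here (squares) and 8 neighbouring pathways. A diamond marks Gpx2, the listed gene past the threshold, black bars are list medians, and names are given beyond 0.7 in either direction. Each list's median lies within 0.1 of 0.

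The genes whose profile lay closest to that of Cbs were found among 10606 genes with a mean above 2.69. Clone and predicted-gene symbols (Gm with digits, or holding Rik) had been left out. Closeness was the root mean square distance over the 6 arrays, after each gene was centred on its own mean. The closest was Plxdc1, a plexin-domain membrane protein, at 0.091 log2 units. It was followed by Bambi, a decoy receptor of BMP and TGF-beta signals, at 0.099 and Pcdh19, a protocadherin, at 0.114. Gli1, a transcription factor of the hedgehog pathway, lay at 0.119, Thy1, a surface protein of stromal cells, at 0.135 and Adcy7, an adenylyl cyclase, at 0.137. Their differences ran from -1.14 to -0.96, against -1.09 for Cbs, and in all 6 the d/d arrays lay below the f/f arrays. The measure selects genes with the same difference, so it is a description of 6 arrays.

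**Figure D5:**
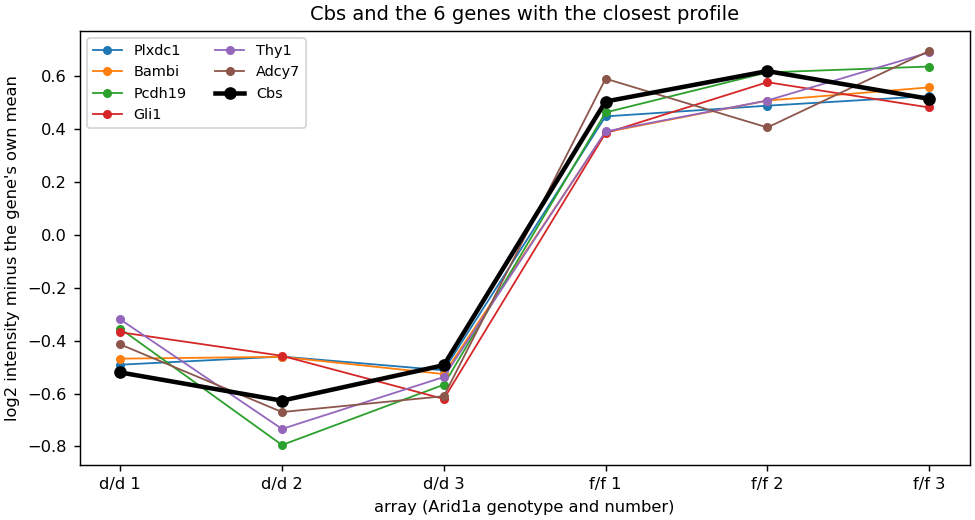
Log2 intensity minus the gene's own mean on each array, Arid1a d/d left and Arid1a f/f right, for Cbs (black) and the 6 genes with the closest profile. Lines join the values of 1 gene. All 7 genes are below their mean on each d/d array and above it on each f/f array.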

How the data were processed

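Biotin-labelled cRNA from 500 ng of RNA per sample was hybridised to Affymetrix arrays, per the labels. The deposited table holds 1 linear intensity per probe set and array, made by the authors with RMA, per the submitters' processing notes, which give no version. RMA corrects background, equalises array distributions and summarises probes, and dim differences can be compressed. The design had assumed log2 values or their conversion, and log2 was taken with no added constant. The scanner files were not used here, the genome build is not given in the sources used here, and no scan batch was known.

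All 41420 probe sets entered 1 fit (limma 3.58.1, R 4.3.3; lmFit, then eBayes without trend, no covariate, 2-sided, 4 residual and 4.19 prior degrees of freedom). P-values were adjusted by Benjamini-Hochberg across the whole table, with a threshold of 0.05. Intervals (95%) come from the same fit. All 8 member probe sets lay above the 40th percentile of mean level. The annotation gave 31562 probe sets exactly 1 symbol, 830 more than one and 9028 no symbol. Lists used each gene's brightest probe set and were described by counts and medians.

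The members and lists were chosen with earlier results of these data known. Named were all members, listed genes past the threshold or else the 2 of smallest p per list, and the 6 genes closest to Cbs. Further listed genes (Gstm1, Gclc, Gclm, Mat1a, Ahcyl1, Ahcyl2 and Csad) and the markers were named for their role after their values were seen. The labels do not say that arrays came from separate animals, so the spread may be partly technical, and 3 arrays per genotype limit the precision. The fit was also run on simulated data with independent noise on each array. That run cannot speak to deviations shared between arrays, and its outcome is not given here. Alternatives were another quantile normalization, median centring, trend with robust variance, array weights, a replicate block, leaving out dim probe sets, leaving out each array, and the mean of a gene's probe sets.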

Additional observations from a re-analysis of the deposited data

How the results depend on the processing

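Cbs was called in all 13 alternatives, by its brighter probe set or, in 1 of them, by the mean of both. The differences were -1.12 to -1.05 by the brighter probe set and -0.81 with the mean of both. The count of called member probe sets was 2, and 1 with a gene's probe sets averaged, which tests 6 genes and adds the dim Mtr probe set. With each array left out it was 1 to 3. It was 3 without d/d 1, where Cdo1 joined, and 1 without each of the other arrays, where Mtr was lost. The dim Mtr probe set turned sign in 4 of these fits, with values of -0.022 to 0.11, and Mtrr in 1, with values of -0.078 to 0.014. Neither was called in any of them.

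The count of called neighbouring genes was 1 and ran from 0 to 5 with an array left out. It was 0 without d/d 2, d/d 3, f/f 2 or f/f 3, and 5 without d/d 1 (1 higher and 4 lower: Psat1, and Nnmt, Suox, Gstm1 and Gpx2). Over all probe sets 217 were called, 329 with array weights and 37 to 971 with an array left out (971 without d/d 1, 55 without d/d 2, 44 without d/d 3, and for f/f 1, f/f 2 and f/f 3 left out in turn 105, 37 and 41). The cause was not tested. Array numbers were treated as names, because the labels state no pairing. Correlations of the deviations of equally numbered arrays were 0.461, 0.0228 and 0.178. For unequally numbered arrays they ran from -0.358 to 0.299. Whether equally numbered arrays shared a batch was not tested. With a replicate block 574 probe sets were called, and the counts for members and neighbouring genes remained 2 and 1. No scaling moved the median of all probe sets by over 0.1.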
